A study of Homo sapiens with 16 samples.

Results

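The genes described here are 10 inhibitors of growth factor signalling: the dual-specificity phosphatases DUSP1, DUSP4, DUSP5 and DUSP6, the Sprouty genes SPRY1, SPRY2 and SPRY4, the Sprouty-related genes SPRED1 and SPRED2, and PHLDA1. They were taken by name, as 10 of the 62703 genes in the count table, and all 10 were among the 10566 genes that passed the expression filter. The set was chosen by its role and by the measured fall of DUSP1 in siMED12 spheroids of LNCaP and 22Rv1, so the siMED12 values of these genes in LNCaP and 22Rv1 are given below as a description without p-values. The siMED12 effect in PC3 and the contrasts of siCtrl spheroids from different lines did not enter that choice and were tested. For DUSP1, the siCtrl levels of LNCaP and 22Rv1 are part of that fall, so its siCtrl contrasts are given as a description. The test was the quasi-likelihood test of edgeR, its p adjusted over all tested genes by the Benjamini-Hochberg method, and past the threshold means an adjusted p under 0.05.

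Messenger RNA was counted in 16 libraries of spheroids from 3 human prostate cancer cell lines. LNCaP responds to androgen and is sensitive to the drug enzalutamide, 22Rv1 is androgen-responsive but drug-resistant, and PC3 lacks androgen response. Every group was transfected with 25 pmol of an siRNA pool, either non-targeting (siCtrl) or directed at MED12 (siMED12), a subunit of the Mediator kinase module, and was grown for 3 days in 2D and then for 4 days as spheroids without further drug or hormone treatment being named. Each line had 3 siCtrl libraries. LNCaP had 3 with siMED12, whereas 22Rv1 and PC3 had 2 each, numbered 1 and 3. Each line is a single established line, and a transient siRNA pool lowers a transcript without removing the gene.

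Receptor tyrosine kinases signal through RAS, RAF and MEK to the kinase ERK, and ERK induces the transcription of genes whose products shut the pathway down. The dual-specificity phosphatases remove phosphate from the activating residues of MAP kinases, Sprouty and SPRED proteins act at or above RAF, and PHLDA1 is a pleckstrin homology-like protein encoded by an ERK-induced gene. The level of these transcripts is commonly read as a trace of recent ERK signalling, although DUSP1 is also an immediate early gene that stress, glucocorticoids and cyclic AMP induce.

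The bases before the annotated start of DUSP1 are shown because this gene was past the threshold in the siMED12 comparisons of both LNCaP and 22Rv1, and those of PHLDA1 and SPRY4 because they were the other members past the threshold in 1 of these lines. Both comparisons entered the choice of the genes, so the threshold only picks which windows are printed and lends no support. RefSeq sequences on GRCh38.p14 were matched by symbol, and 8 of the 10 members had a sequence that could be used. Each line gives the 250 bases upstream of a start, 5′ to 3′ on the strand of the gene. Capitals mark the cyclic AMP response element core GACGTC, extended to the full element TGACGTCA where it is present, the E-box CACGTG and the ETS core CCGGAA, searched on both strands.
DUSP1, chr5:172771196-172771445, minus strand: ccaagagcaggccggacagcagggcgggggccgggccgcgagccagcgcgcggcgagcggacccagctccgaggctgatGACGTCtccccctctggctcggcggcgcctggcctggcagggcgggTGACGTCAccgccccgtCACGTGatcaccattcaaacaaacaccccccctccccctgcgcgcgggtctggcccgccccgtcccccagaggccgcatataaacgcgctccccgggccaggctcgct
PHLDA1, chr12:76031777-76032026, minus strand: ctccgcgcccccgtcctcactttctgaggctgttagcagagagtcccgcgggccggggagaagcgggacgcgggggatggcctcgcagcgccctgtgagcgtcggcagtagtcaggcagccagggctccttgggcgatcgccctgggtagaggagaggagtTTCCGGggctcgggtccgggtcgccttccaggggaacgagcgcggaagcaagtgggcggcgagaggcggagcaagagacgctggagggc
SPRY4, chr5:142324248-142324497, minus strand: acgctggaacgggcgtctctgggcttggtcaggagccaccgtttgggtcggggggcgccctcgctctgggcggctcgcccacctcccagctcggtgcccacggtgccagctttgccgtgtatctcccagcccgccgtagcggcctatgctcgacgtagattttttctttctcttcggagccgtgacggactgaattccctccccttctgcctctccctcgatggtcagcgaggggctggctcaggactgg
The DUSP1 window held 1 full cyclic AMP response element, which is present in 1.65% of the 35116 RefSeq windows of this length, and its first base lay 125 bases before the start. GACGTC occurred 2 times, 1 of them inside the full element, against 4.36% of all windows with at least 1 match. An E-box, found in 6.34% of all windows, began 108 bases before the start, and both matches to the hypoxia response core ACGTG, found in 18.5% of windows, lay within it. The DUSP1 window had no match to CCGGAA (14.5% of windows), to the AP-1 element TGACTCA (4.2%) or to the CArG box (1.16%). The PHLDA1 window held 1 ETS core and the SPRY4 window none. No window of the other members searched, which leave out DUSP4 and DUSP5, held GACGTC or CACGTG. GC boxes (GGGCGG, 42.6% of windows) were found 4 times before DUSP1. The RefSeq start of SPRY4 used here lies inside the Gencode gene. These are matches of letters only.

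**Figure D1:**
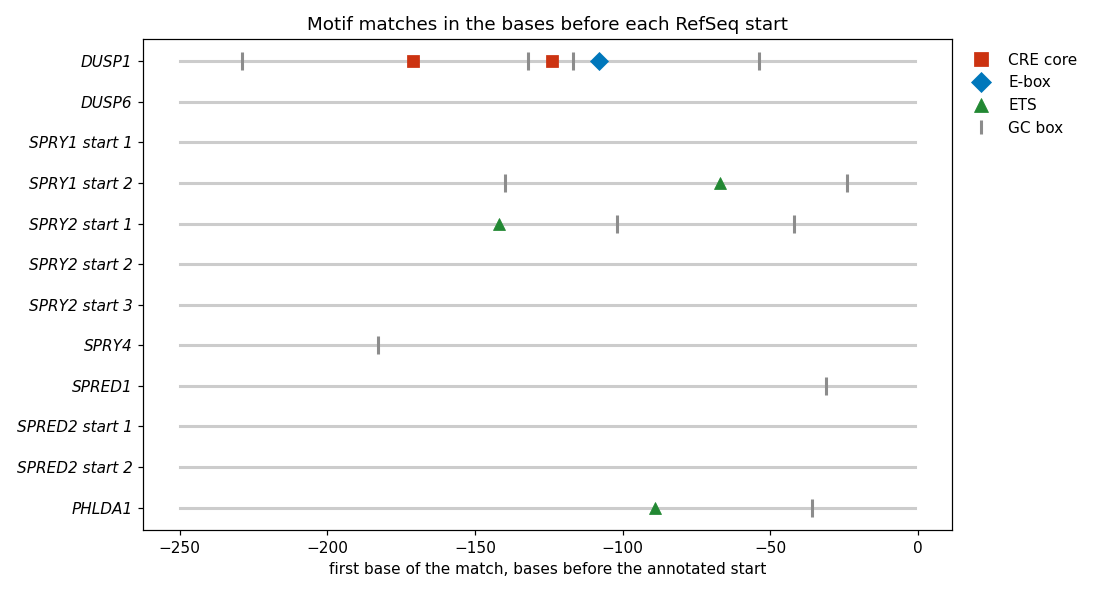
Position of motif matches in the 250 bases before each RefSeq start of 8 member genes, in bases before the start, with 1 row per start and 1 symbol per motif. The CRE core and the E-box appear only in the DUSP1 row, with first bases 171, 124 and 108 bases before the start, among the starts drawn.

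The libraries held 479118 to 993807 counts with a median of 764494, and 14365 to 15867 genes were detected in each. Levels are given as CPM, counts scaled to a common library total, with TMM (trimmed mean of M values) normalization. A count of 0 in a library allows up to 3 counts, which corresponds to 3.15 to 6.22 CPM, and covers counting error only. MED12 itself was shallow, with 5 to 9 counts in LNCaP siMED12 against 6 to 11 in its siCtrl, 7 in each siMED12 library of 22Rv1 against 10 to 18, and 7 to 12 in PC3 against 8 to 22, so the groups were apart in 22Rv1 alone. The paper reports a highly efficient MED12 knockdown in spheroids. Counts this low cannot decide how far MED12 fell in LNCaP or PC3. VIM was at 502 to 655 CPM in PC3 and at most 136 elsewhere, but AKR1C3, listed as a PC3 marker, was at 0 to 2.07 CPM in PC3. PTPRC, CDH5, COL1A2 and DCN were at 0 in every library. Genes restricted to PC3 were seen at 5.49% of their PC3 level in 22Rv1 siMED12 replicate 3 and at no more than 1.66% in any other library of another line. Genes restricted to LNCaP were seen at 3.85% of their LNCaP level in PC3 siMED12 replicate 3, and those restricted to 22Rv1 at up to 2.58%, in PC3 siCtrl replicate 3. The amount expected from other lines is given for the members in 22Rv1 siMED12 replicate 3, for DUSP1 in PC3 and for SPRY2 and SPRY4 in LNCaP siCtrl.

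The 3 lines differed in which of the inhibitors they expressed. In siCtrl spheroids the 10 genes together reached 463 ± 73.6 CPM in LNCaP, 346 ± 41.7 in 22Rv1 and 931 ± 27.1 in PC3 (SD, n = 3 each). DUSP1 made up 42.4% of that sum in LNCaP, 32.4% in 22Rv1 and 3.48% in PC3. Because 3′ tags do not scale with transcript length, no length correction was made between genes. Other differences between genes in how well they are counted were not examined, so the shares are approximate. As bulk samples, these levels cannot tell fewer expressing cells from less RNA per cell.

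**Figure D2:**
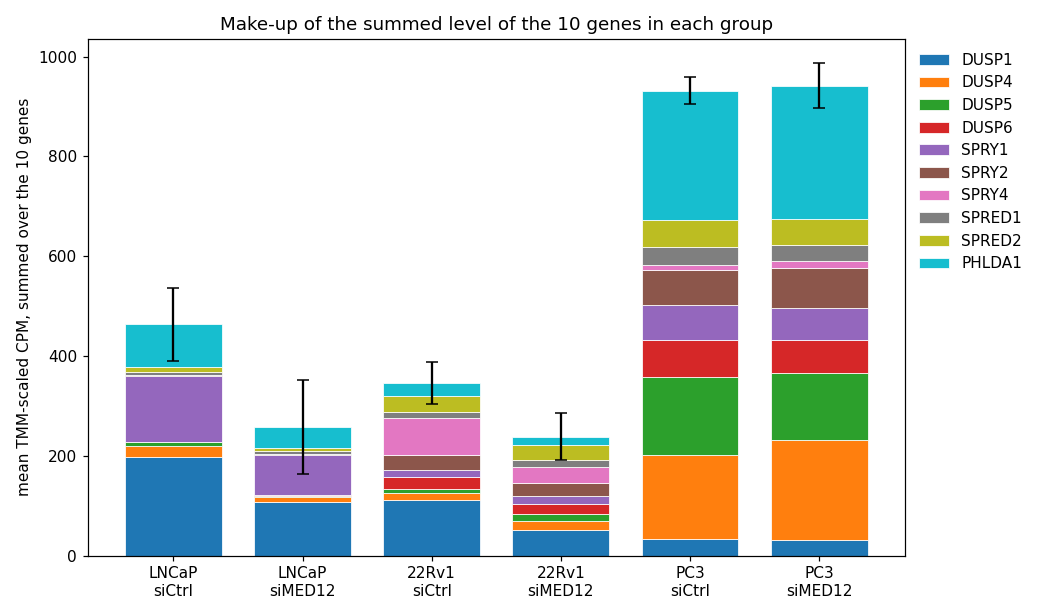
Mean TMM-scaled CPM of the 10 genes stacked for each of the 6 groups, with a bar for the SD of their sum over 3 libraries (2 for siMED12 in 22Rv1 and PC3). DUSP1 and SPRY1 fill most of the LNCaP siCtrl column, and PHLDA1, DUSP4 and DUSP5 most of the PC3 columns.

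DUSP1, an inducible nuclear phosphatase that acts on p38, JNK and ERK (ENSG00000120129, chromosome 5, bases 172768096 to 172771195 on GRCh38, minus strand), was the highest member in LNCaP siCtrl. It stood at 181, 165 and 245 CPM in LNCaP siCtrl, at 109, 102 and 123 in 22Rv1 siCtrl and at 37.4, 26.3 and 33.2 in PC3 siCtrl. The 3 siCtrl groups did not overlap and fell in the order LNCaP, 22Rv1, PC3. The log2 difference of 22Rv1 from LNCaP was -0.83 (SE 0.209), and the difference of PC3 from LNCaP was -2.63 (SE 0.251) and from 22Rv1 -1.80 (SE 0.272). No p-value is given, since the siCtrl values of LNCaP and 22Rv1 were part of the fall that entered the choice.

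DUSP4, a nuclear phosphatase of ERK and JNK (chromosome 8, bases 29333064 to 29350684, minus strand), was highest in PC3. It stood at 179, 160 and 169 CPM in PC3 siCtrl, at 26.5, 22.9 and 22.3 in LNCaP siCtrl and at 15.6, 3.34 and 24.4 in 22Rv1 siCtrl. PC3 was higher than LNCaP by 2.83 (SE 0.234, edgeR adjusted p = 6.01e-12) and than 22Rv1 by 3.45 (SE 0.256, edgeR adjusted p = 5.44e-13), each on the log2 scale. LNCaP and 22Rv1 overlapped and did not pass the test (edgeR adjusted p = 0.174), but without 22Rv1 siCtrl replicate 3 the difference was -1.18 and passed it.

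DUSP5, a nuclear phosphatase of ERK (chromosome 10, bases 110497907 to 110511533, plus strand), was largely a PC3 transcript. Its siCtrl levels were 120, 189 and 160 CPM in PC3, against 11.6, 7.16 and 2.12 in LNCaP and 7.81, 5.01 and 8.98 in 22Rv1. PC3 was 24.5-fold above LNCaP (log2 4.62, SE 0.332) and 20.7-fold above 22Rv1 (log2 4.37, SE 0.324). These folds are a description, since DUSP5 passed the expression filter only through PC3, where it is high. LNCaP and 22Rv1 overlapped and their difference did not pass the test (edgeR adjusted p = 0.789).

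DUSP6, the cytoplasmic phosphatase most selective for ERK (chromosome 12, bases 89347235 to 89352501, minus strand), had no count in any LNCaP siCtrl library. It stood at 15.6, 26.7 and 28.2 CPM in 22Rv1 siCtrl and at 59.3, 72.5 and 91.0 in PC3 siCtrl. Against a limit of 3 counts over the LNCaP group, it was at least 17.4-fold higher in 22Rv1 and at least 55.1-fold higher in PC3. These limits are a description, since DUSP6 passed the expression filter only through the other lines. PC3 was above 22Rv1 by 1.66 on the log2 scale (SE 0.266, edgeR adjusted p = 4.07e-06). An unnamed long non-coding gene shares 1105 exonic bases with DUSP6 on the other strand, and the strand setting of the counting is not given in the sources used here.

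The Sprouty genes were split between the lines. SPRY1, an inhibitor of receptor signalling to RAS (chromosome 4, bases 123396795 to 123403760, plus strand), was at 92.8, 140 and 166 CPM in LNCaP siCtrl, at 78.7, 67.3 and 62.1 in PC3 siCtrl and at 14.3, 20.1 and 12.8 in 22Rv1 siCtrl. The LNCaP group lay above both others and the 22Rv1 group below both. The log2 difference from LNCaP was -3.13 in 22Rv1 (SE 0.321, edgeR adjusted p = 1.73e-09) and -0.97 in PC3 (SE 0.237, edgeR adjusted p = 0.000887), and PC3 was above 22Rv1 by 2.16 (SE 0.355, edgeR adjusted p = 5.16e-06).

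SPRY2, which also blocks receptor signalling upstream of ERK (chromosome 13, bases 80335976 to 80341126, minus strand), had 1 count in all LNCaP siCtrl libraries together. It stood at 29.9, 36.8 and 17.96 CPM in 22Rv1 siCtrl and at 83.9, 55.7 and 70.8 in PC3 siCtrl. The ratio to LNCaP was 61.7 in 22Rv1 (95% counting interval 10.7 to 2479) and 155 in PC3 (27.5 to 6160), and PC3 was above 22Rv1 by 1.33 on the log2 scale (SE 0.277, edgeR adjusted p = 0.000119). The ratios to LNCaP are a description, since SPRY2 passed the expression filter only through the other lines. Their intervals pool the counts of each group and leave out the spread between libraries. In the LNCaP siCtrl libraries 0.705 to 1.38 CPM would be expected from other lines, against a measured mean of 0.477. Whether the LNCaP count was carried over was not tested.

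SPRY4, the third Sprouty gene measured (chromosome 5, bases 142310427 to 142326455, minus strand), was chiefly a 22Rv1 transcript. It stood at 49.5, 83.6 and 94.95 CPM in 22Rv1 siCtrl and at 12.9, 8.41 and 11.6 in PC3 siCtrl, with 1 count in all LNCaP siCtrl libraries together. The ratio of 22Rv1 to LNCaP was 169.5 (95% counting interval 30.0 to 6735), and PC3 lay below 22Rv1 with a log2 difference of -2.79 (SE 0.32, edgeR adjusted p = 7.88e-09). The ratio to LNCaP is a description for the same reason as that of SPRY2, and its interval too leaves out the spread between libraries. Here too the LNCaP siCtrl mean, 0.552 CPM, lay below the 0.763 to 0.82 CPM expected from other lines.

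SPRED1 and SPRED2, membrane-bound relatives of the Sproutys that recruit the RAS inhibitor neurofibromin, were at no more than 78.7 CPM in any library. Both passed the expression filter only through 22Rv1 or PC3, so their rises above LNCaP are given as a description. SPRED1 (chromosome 15, bases 38252836 to 38357249, plus strand) was at 4.3 to 9.94 CPM in LNCaP siCtrl, 7.7 to 15.6 in 22Rv1 siCtrl and 28.4 to 41.9 in PC3 siCtrl. PC3 was above LNCaP by 2.35 (SE 0.366) and above 22Rv1 by 1.56 on the log2 scale (SE 0.327, edgeR adjusted p = 0.00015), while 22Rv1 and LNCaP overlapped (edgeR adjusted p = 0.186). SPRED2 (chromosome 2, bases 65310851 to 65432637, minus strand) was at 5.73 to 10.6 CPM in LNCaP, 27.3 to 38.5 in 22Rv1 and 37.9 to 78.7 in PC3. It was higher than in LNCaP by 1.81 in 22Rv1 (SE 0.436) and by 2.57 in PC3 (SE 0.386). The PC3 and 22Rv1 ranges overlapped, and their difference of 0.76 on the log2 scale (SE 0.298, edgeR adjusted p = 0.0311) did not pass the threshold with DESeq2 (0.79), with limma (0.69), or without 22Rv1 siCtrl replicate 1 (0.66), 22Rv1 siCtrl replicate 2 (0.70) or PC3 siCtrl replicate 1 (0.39).

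PHLDA1 (chromosome 12, bases 76025447 to 76031776, minus strand) was the highest member in PC3, at 222, 300 and 256 CPM in siCtrl. It stood at 66.3, 100.3 and 91.2 CPM in LNCaP siCtrl and at 22.1, 23.4 and 33.4 in 22Rv1 siCtrl, with no overlap between lines. The log2 difference of 22Rv1 from LNCaP was -1.70 (SE 0.247, edgeR adjusted p = 1.22e-06), and PC3 was above LNCaP by 1.58 (SE 0.173, edgeR adjusted p = 2.96e-09) and above 22Rv1 by 3.29 (SE 0.213, edgeR adjusted p = 2.11e-14). PHLDA1 shares 553 exonic bases with PHLDA1-AS1 on the other strand.

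By count, 7 of the 10 members passed the threshold of an adjusted p of 0.05 between 22Rv1 and LNCaP siCtrl (4 higher in 22Rv1, 3 lower), where 43.2% of all tested genes did. All 10 passed it between PC3 and LNCaP (8 higher, 2 lower, 54.7% of all genes) and between PC3 and 22Rv1 (8 higher, 2 lower, 54.9% of all genes). These contrasts share siCtrl libraries, and each count includes DUSP1, whose siCtrl levels in LNCaP and 22Rv1 entered the choice of the genes. DUSP5, DUSP6, SPRY2, SPRY4, SPRED1 and SPRED2 reached the filter level of 13.08 CPM in 0 LNCaP libraries, so that they passed the filter only through other lines and the counts against LNCaP are partly set by the filter. DUSP5 reached it in 1 of the 5 22Rv1 libraries, a siMED12 library, and in all 5 of PC3, so the count between PC3 and 22Rv1 is also partly set by the filter. SPRED1 reached it in 2 of the 5 22Rv1 libraries and in all 5 of PC3. No support is drawn from these counts.

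**Figure D3:**
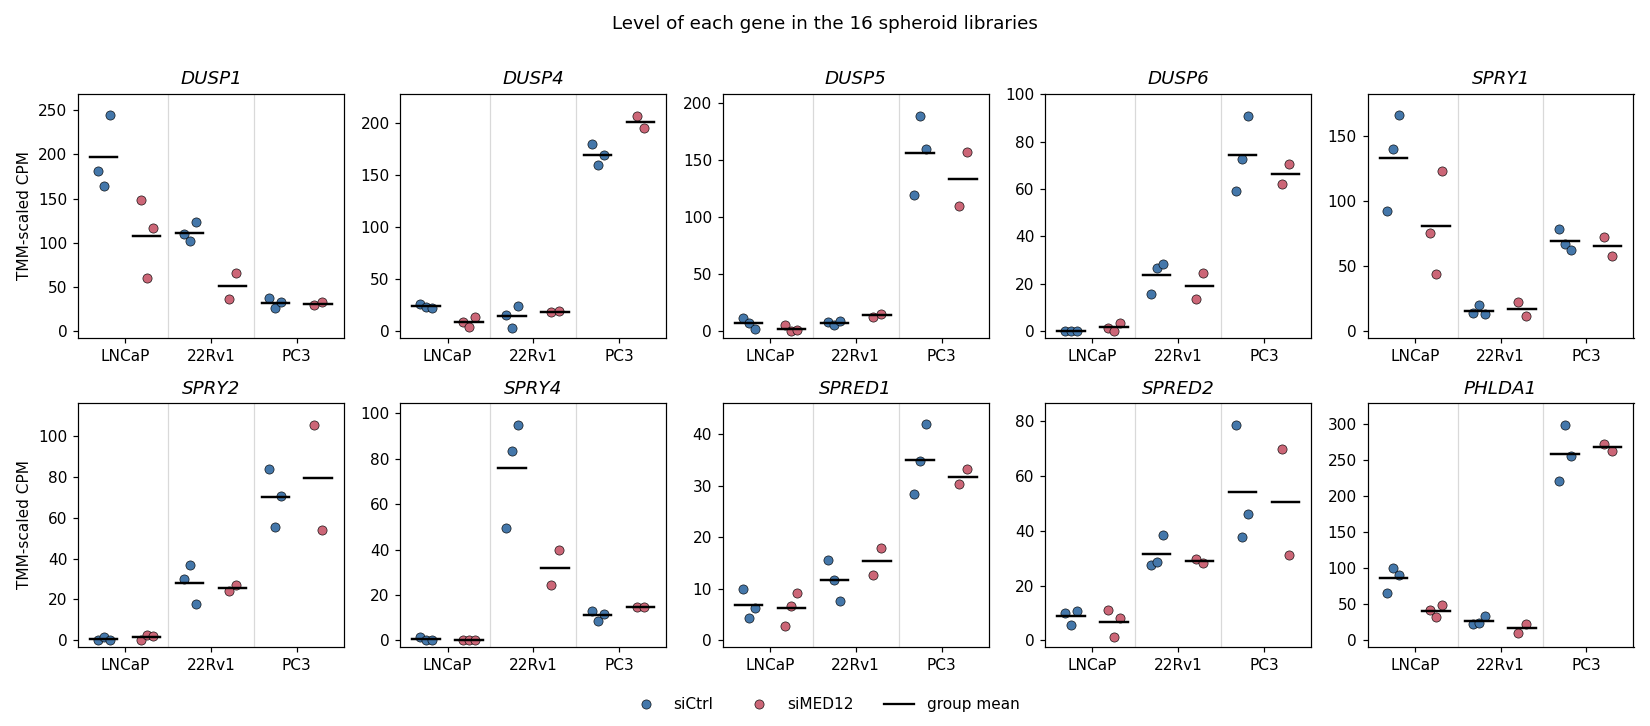
TMM-scaled CPM of each gene in each of the 16 libraries on linear axes from 0, with siCtrl and siMED12 libraries side by side within each line and a bar at each group mean. DUSP1 falls from LNCaP to 22Rv1 to PC3, DUSP4, DUSP5 and PHLDA1 are highest in PC3, and SPRY4 is highest in 22Rv1.

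In LNCaP, siMED12 spheroids held less DUSP1 and less PHLDA1. DUSP1 was at 148, 60.1 and 116 CPM with siMED12, against 181, 165 and 245 with siCtrl, a mean of 108 ± 44.7 against 197 ± 42.4 (SD, n = 3 each). All siMED12 libraries lay below all siCtrl libraries, and the log2 fold change was -0.88 (SE 0.207, 95% interval -1.30 to -0.46). PHLDA1 was at 42.0, 32.03 and 49.4 CPM with siMED12, against 66.3, 100.3 and 91.2 with siCtrl, again without overlap, and its log2 fold change was -1.06 (SE 0.223). DUSP4 was likewise lower in every siMED12 library, at 8.39, 4.00 and 13.8 CPM against 26.5, 22.9 and 22.3 with siCtrl (log2 fold change -1.38, SE 0.403).

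SPRY1 was at 75.5, 44.04 and 123 CPM in LNCaP siMED12 against 92.8, 140 and 166 in siCtrl, and these ranges overlapped (log2 fold change -0.72, SE 0.231). DUSP5 had 4, 0 and 1 counts against 7, 5 and 2 (-1.48 on the log2 scale, SE 0.809), a value that was -3.04 without LNCaP siMED12 replicate 1 and -0.93 without LNCaP siCtrl replicate 1. SPRED1 and SPRED2, with log2 fold changes of -0.06 (SE 0.531) and -0.37 (SE 0.6), had at most 10 counts in a library. DUSP6 had 1, 0 and 3 counts with siMED12 and 0 with siCtrl, SPRY2 had 0, 2 and 2 counts against 0, 1 and 0, and SPRY4 had 0 counts against 1, 0 and 0, so that no fold is given for these.

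DUSP1 and PHLDA1, 2 of the 10 members, were past the threshold in LNCaP, where 0.416% of all tested genes were, 5 of them higher and 39 lower. With the replicate number as a block, which pairs the LNCaP libraries, 4 members were past it, DUSP4 and SPRY1 being added. The contrast entered the choice of these genes, and nothing is read from these counts. Across all genes, 12.6% had groups that did not overlap in this comparison. The 5 fibroblast or stromal markers, of which COL1A2 and DCN were at 0, summed to 13.3 to 17.2 CPM in LNCaP siMED12 and 21.6 to 32.9 in siCtrl, and their part in the result was not tested. LNCaP siMED12 replicate 2 was the lowest LNCaP library for DUSP1, DUSP4, DUSP5, SPRY1, SPRED2 and PHLDA1, and had the highest mitochondrial share of all libraries. That share was 10.51%, 12.85% and 10.32% in LNCaP siMED12 and 10.1%, 8.6% and 8.63% in LNCaP siCtrl, without overlap, and its part in the lower DUSP1, DUSP4 and PHLDA1 was not tested. The part of that library in the result was measured by leaving it out: DUSP1 was then at -0.60, DUSP4 at -1.05 and PHLDA1 at -0.92 on the log2 scale, and neither DUSP1 nor PHLDA1 was past the threshold. PHLDA1 was also not past it without LNCaP siCtrl replicate 2 (-0.94) or replicate 3 (-1). PHLDA1 was not past it with limma (-1.02), and DUSP1 not with DESeq2 (-0.87), limma (-0.92) or carry-over subtracted (-0.88). DUSP1 was past the threshold in only 6 of the 16 fits that leave out 1 library. Its values were -0.92, -0.98 and -0.66 without LNCaP siCtrl replicates 1, 2 and 3 and -0.92 without LNCaP siMED12 replicate 3. They were -0.87 without PC3 siMED12 replicate 1 and -0.88 without 22Rv1 siCtrl replicate 1 or 2, PC3 siCtrl replicate 3 or PC3 siMED12 replicate 3.

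In 22Rv1, siMED12 spheroids held less DUSP1 and less SPRY4. DUSP1 was at 36.1 and 65.4 CPM with siMED12, against 109, 102 and 123 with siCtrl, a mean of 50.7 ± 20.8 (SD, n = 2) against 111.5 ± 10.8 (SD, n = 3). The groups did not overlap, and the log2 fold change was -1.17 (SE 0.281, 95% interval -1.74 to -0.60). SPRY4 was at 24.4 and 39.8 CPM against 49.5, 83.6 and 94.95, also without overlap, a mean of 32.1 ± 10.9 (SD, n = 2) against 76.0 ± 23.7 (SD, n = 3) and a log2 fold change of -1.26 (SE 0.288).

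PHLDA1 was at 10.6 and 23.1 CPM in 22Rv1 siMED12 against 22.1, 23.4 and 33.4 in siCtrl (log2 fold change -0.69, SE 0.37). The higher of these siMED12 values is that of replicate 3, in which 16.1 CPM of PHLDA1 would be expected from other lines at the estimated carry-over. With the expected counts subtracted from every library the log2 fold change was -1.76 and past the threshold, as were 172 of the 10566 tested genes. Nothing is read from that call. DUSP5 was at 12.7 and 15.4 CPM against 7.81, 5.01 and 8.98, higher in both siMED12 libraries (0.89, SE 0.558), with 8.75 CPM of the replicate 3 value expected from other lines and a log2 fold change of 0.56 after subtraction. For DUSP1 and SPRY4 in the same library 6.14 and 0.614 CPM were expected, and their log2 fold changes after subtraction were -1.20 and -1.21.

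DUSP4 was at 18.02 and 19.2 CPM in 22Rv1 siMED12, inside the siCtrl range (log2 fold change 0.28, SE 0.413, and -0.08 after subtraction), with 9.83 CPM of the replicate 3 value expected from other lines, as were 2.15 of the 3.34 CPM in siCtrl replicate 2. DUSP6 was at 13.8 and 24.4 CPM against 15.6 to 28.2 (-0.32, SE 0.38), with 4.08 CPM of the latter siMED12 value expected from other lines. SPRY1 was at 22.3 and 11.5 CPM (0.17, SE 0.506), with 6.77 CPM of the latter expected from other lines, and overlapped its siCtrl group. SPRY2 was at 24.4 and 26.9 (-0.11, SE 0.365), SPRED1 at 12.7 and 17.96 (0.37, SE 0.423) and SPRED2 at 29.7 and 28.2 (-0.12, SE 0.366), each overlapping its siCtrl group, with 3.86, 2.07 and 3.17 CPM of the replicate 3 values expected from other lines.

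DUSP1 and SPRY4, 2 of the 10 members, were past the threshold in 22Rv1, where 1.84% of all tested genes were, 105 higher and 89 lower. This contrast too entered the choice of the genes. Across all genes, 26.6% had groups that did not overlap. The 8 PC3 markers, of which KRT5 was at 0 throughout, summed to 171 to 258 CPM in 22Rv1 siMED12 and 101 to 114 in siCtrl, with AKR1C3 alone at 48.8 and 28.2 CPM in the siMED12 libraries. Beyond the subtraction above, their part in the result was not tested. The median log2 fold change was -0.12 over the members and 0.0061 over all genes. DUSP1 was not past the threshold without 22Rv1 siCtrl replicate 3 (log2 fold change -1.09) or siMED12 replicate 1 (-0.77). For SPRY4 the same was true of siCtrl replicate 2 (-1.19), of siCtrl replicate 3 (-1.05) and of siMED12 replicate 1 (-0.93), and also of DESeq2 (-1.25) and limma (-1.17).

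In PC3, no member passed the test. DUSP1 was at 29.0 and 33.2 CPM with siMED12 against 37.4, 26.3 and 33.2 with siCtrl (log2 fold change -0.06, SE 0.402, edgeR adjusted p = 1), with a 95% interval of -0.88 to 0.76. Of the 33.2 CPM in siMED12 replicate 3, 8.63 CPM would be expected from other lines. With the expected counts subtracted, DUSP1 had 19 and 12 counts in siMED12 against 27, 22 and 20 in siCtrl. Over 6 alternative settings, the subtraction among them, its log2 fold change ranged from -0.207 to -0.0407. PHLDA1, the highest member there, was at 273 and 263 CPM against 222, 300 and 256 (0.05, SE 0.173, edgeR adjusted p = 1).

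DUSP4 was at 207 and 195 CPM in PC3 siMED12 against 179, 160 and 169, both above the siCtrl range (0.25 on the log2 scale, SE 0.191, edgeR adjusted p = 0.975). SPRY4 was at 14.5 in both siMED12 libraries against 12.9, 8.41 and 11.6 (0.42, SE 0.525, edgeR adjusted p = 0.978). Across all genes, 20.7% had groups that did not overlap in this comparison. DUSP5 (-0.27), DUSP6 (-0.17), SPRY1 (-0.06), SPRY2 (0.27), SPRED1 (-0.14) and SPRED2 (0.0039) had SEs of 0.223 to 0.309 and edgeR adjusted p of 0.978 to 1.

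The share of all genes past the threshold in PC3 was 0% of 10566 with edgeR, with 527 genes at an unadjusted p under 0.05, none of them a member, and the smallest adjusted p was 0.42. DESeq2 called 0 genes and limma 1. The median log2 fold change in PC3 was -0.026 over the members and -0.038 over all genes.

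**Figure D4:**
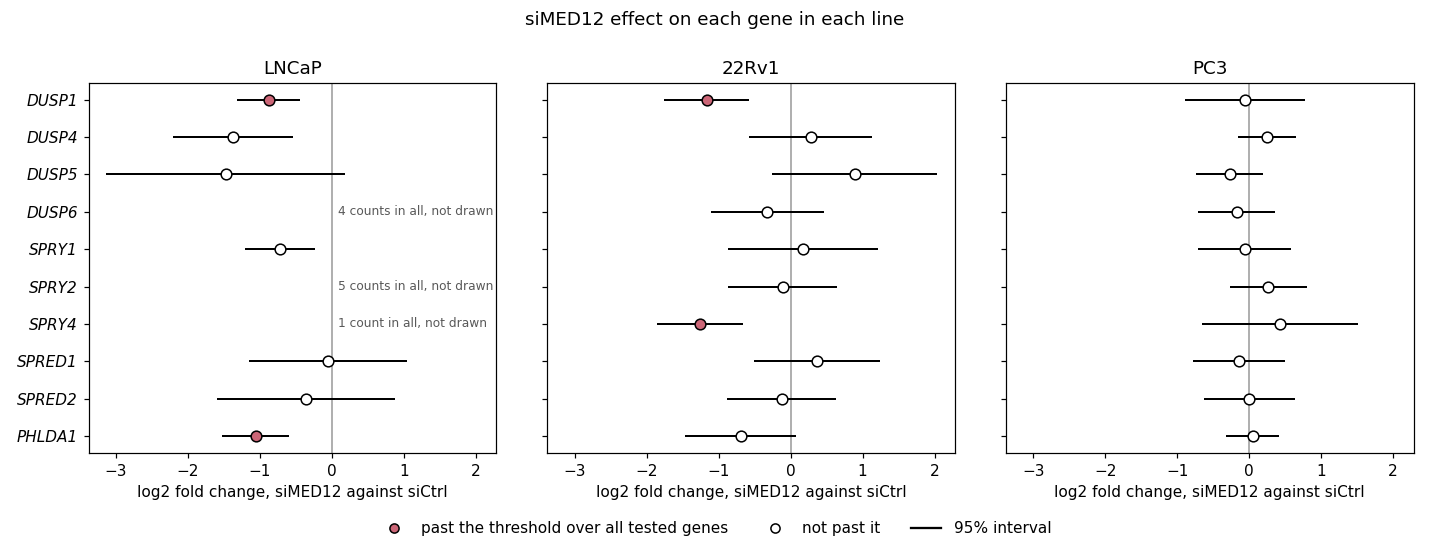
Log2 fold change of each gene between siMED12 and siCtrl in each line with its 95% interval, filled where past the threshold over all tested genes, with 3 genes of under 10 counts in LNCaP not drawn. The LNCaP and 22Rv1 panels are a description, since these contrasts entered the choice of the genes. DUSP1 lies at -0.88 in LNCaP, -1.17 in 22Rv1 and -0.06 in PC3.

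Differences between the effects in the lines were also fitted, on contrasts that share libraries with those above. For DUSP1 the effect in PC3 minus that in LNCaP was 0.82 (SE 0.461) and minus that in 22Rv1 was 1.11 (SE 0.501), while the effect in 22Rv1 minus that in LNCaP was -0.29 (SE 0.352). For PHLDA1 the effect in PC3 minus that in LNCaP was 1.11 (SE 0.282), for DUSP4 it was 1.63 (SE 0.446), and for SPRY4 the effect in PC3 minus that in 22Rv1 was 1.68 (SE 0.617). The effect on DUSP4 in 22Rv1 minus that in LNCaP was 1.66 (SE 0.582). No member was past the threshold in these differences, in which 0.189% (22Rv1 minus LNCaP), 0.0284% (PC3 minus LNCaP) and 0.0946% (PC3 minus 22Rv1) of all genes were. With the replicate block, which pairs same-numbered libraries within every line, PHLDA1 was past it in the effect in PC3 minus that in LNCaP (log2 difference 1.23). In that fit 13 of the 10566 tested genes were past it. PC3 had only 2 siMED12 libraries to pair.

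By role, the 4 phosphatases summed to 228 ± 38 CPM in LNCaP siCtrl and 121 ± 51.2 in LNCaP siMED12, to 157 ± 24.9 and 102.5 ± 31 in 22Rv1, and to 432.5 ± 31.8 and 432 ± 34.4 in PC3 (SD, n = 3 except n = 2 for siMED12 in 22Rv1 and PC3). DUSP1, whose fall entered the choice of the genes, is part of these sums. Its own mean went from 197 to 108 CPM in LNCaP and from 111.5 to 50.7 in 22Rv1. Nothing is read from the sums about the other phosphatases. The 3 Sproutys summed to 134 ± 36.6 and 82.5 ± 39.8 CPM in LNCaP, 120 ± 23.9 and 74.6 ± 5.09 in 22Rv1 and 150 ± 22.6 and 160 ± 46.7 in PC3. The SPRED pair summed to 15.6 ± 5.06 and 13.1 ± 4.69, 43.1 ± 3.04 and 44.3 ± 2.66, and 89.3 ± 17.3 and 82.2 ± 25.4 CPM in the same order. Carry-over was not subtracted from any of these sums. In 22Rv1 siMED12 replicate 3 the phosphatases summed to 124.4 CPM. Of this, 6.14 CPM of DUSP1, 9.83 of DUSP4, 8.75 of DUSP5 and 4.08 of DUSP6 would be expected from other lines.

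Lists of other pathway genes were examined in the same fits. Of 13 tested other dual-specificity phosphatases, none passed in LNCaP or PC3 with siMED12 and 1 was lower in 22Rv1: DUSP2, a nuclear phosphatase, at 46.2 against 100 CPM (log2 fold change -1.09, SE 0.236). Of 10 tested other inhibitors of receptor or RAS signalling, 1 was lower in 22Rv1: ERRFI1, an inhibitor of the EGF receptor, at 58.1 against 121 CPM (-1.07, SE 0.221). Of 13 other transcripts induced by ERK, FOS (2.67 against 22.4 CPM, -3.06, SE 0.645) and MYC (460 against 726 CPM, -0.65, SE 0.135) were lower in LNCaP, MYC alone in 22Rv1 (451 against 831 CPM, -0.88, SE 0.153) and none in PC3. Among 11 receptors FGFR3 was higher in 22Rv1 (39.8 against 17.8 CPM, 1.20, SE 0.307). None of 16 genes of the RAS, RAF, MEK and ERK core, of 12 JNK and p38 kinases, of 3 ligands or of 11 transcription factors known to act on these promoters passed in any line with siMED12.

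Between the siCtrl groups of PC3 and LNCaP, 8 of the 13 other ERK-induced transcripts were higher in PC3 and 3 lower, among them the membrane protein gene EMP1 (log2 difference 6.71) and the transcription factor genes FOSL1 (7.39) and ETV4 (143 against 0.707 CPM). The ligand genes AREG (150 against 1.81 CPM) and TGFA (27.7 against 1.03 CPM) and the receptor genes EPHA2 (log2 difference 5.28) and MET (70.9 against 1.03 CPM) were higher in PC3 too, with 2 of 3 ligands and 4 of 11 receptors higher and 2 receptors lower. Of the transcription factors, 5 of 11 were higher, including CREM (log2 difference 3.69), HIF1A (1.99) and the glucocorticoid receptor gene NR3C1 (31.7 against 1.03 CPM), and 3 lower. The core genes were split, 5 of 16 higher and 4 lower, as were the JNK and p38 kinases, 5 of 12 higher and 2 lower. Among the other phosphatases 5 of 13 were higher and 3 lower, with DUSP2 (-2.47) and DUSP8 (-1.78) lower and DUSP7 (1.27) higher, and of the other inhibitors 4 of 10 were higher, including ERRFI1 (2.58) and SOCS3 (35.2 against 0.353 CPM), and 1 lower. Of all tested genes 54.7% were past the threshold in this contrast, and nothing particular to these lists is read from their counts.

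Between 22Rv1 and LNCaP siCtrl, 7 of the 13 ERK-induced transcripts were higher in 22Rv1, including CCND1 (log2 difference 1.66) and ETV4 (30.3 against 0.707 CPM), and ETV1 was lower (-4.69). ERRFI1 (2.24) was higher and PHLDA3 (-2.28) lower among the other inhibitors, of which 3 of 10 were higher and 2 lower, and DUSP9 (-2) was lower among the other phosphatases, of which 1 of 13 was higher and 2 lower. Of 11 receptors 3 were higher in 22Rv1 and 4 lower, among the latter ERBB2 (-3.09), EGFR (-2.47) and IGF1R (0.985 against 16.7 CPM). The 3 higher were EPHA2 (1.84), FGFR3 (1.45) and MET (5.86 against 1.03 CPM), named after their values were seen. In this contrast 43.2% of all tested genes were past the threshold, and nothing particular to these lists is read from their counts.

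The genes whose log2 CPM ran closest to that of a member over the 16 libraries are given by Pearson's r, without p-values, since the points share the cell lines. For DUSP1 these were NDUFA4L2 (r = 0.954), BNIP3L (0.948) and FASN (0.948), and for PHLDA1 KHDRBS3 (0.96), SEMA4B (0.957) and SNHG16 (0.955). For SPRY4 they were TMSB10 (0.977), ZFP36L2 (0.976) and SQSTM1 (0.973), and for SPRY1 PFKP (0.962), TSC22D1 (0.96) and CCDC85B (0.946). For DUSP4 they were SNX10 (0.969), ERO1A (0.964) and ANKRD22 (0.962), and for DUSP5 DCBLD2 (0.979), PHF19 (0.977) and MYDGF (0.976). For DUSP6 they were ZNF22 (0.983), SLC52A2 (0.983) and IGF2BP2 (0.977), and for SPRY2 NEFL (0.979), an unnamed gene (0.978) and ZNF22 (0.978). For SPRED1 they were PPP1R18 (0.961), RIDA (0.954) and LGALS1 (0.952), and for SPRED2 SPAG1 (0.955), EFNB3 (0.955) and FBXO7 (0.953). Among the members themselves DUSP6 and SPRY2 ran closest (0.962), then DUSP4 and DUSP5 (0.936), and SPRY1 and SPRY4 ran most in opposite directions (-0.848).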

How the data were processed

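Spheroid RNA was made into BRB-seq 3′ tag libraries. The authors aligned and counted reads with STARsolo on Gencode release 43 (GRCh38.p13) and deposited raw counts per gene. The log2 CPM table the authors deposited from these counts was recomputed to within 5.0e-14 and used for limma. Whether molecular identifiers were collapsed, and the STARsolo version, are not given in the sources used here.

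Libraries were grouped by label into 6 groups. The 62703 genes were filtered (minimum count 10, minimum total 15, equivalent to 13.08 CPM) to 10566, scaled by TMM and tested in 1 fit of the 16 libraries with the two-sided quasi-likelihood test of edgeR 4.0.16 (R 4.3.3), adjusted over the 10566 genes by Benjamini-Hochberg, threshold 0.05. The SE is the size of the log2 fold change over the square root of F. The test was tried on simulated counts. Replicates are called so by the labels, which do not say whether they came from separate cultures, so p-values measure only the spread between these samples. Pairs of libraries within a group varied 1.6 to 3.43 times more than counting alone.

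Replicate numbers pair the LNCaP libraries: same-numbered siCtrl and siMED12 libraries deviated together (r = 0.177, 0.132 and 0.135 over 6720 genes). In 22Rv1 (0.19 and 0.253) and PC3 (0.117 and 0.0787) there were only 2 pairs each.

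Members, background lists and tests were chosen with earlier results of these data known. The text names all 10 members, MED12, up to 3 genes past the threshold per list and comparison by smallest p, and the 3 genes most alike to each member. Carry-over was estimated from genes at 50 CPM or more in 1 line and at most 3 CPM in the others, limits set after the data were seen, which gave 9 genes for LNCaP, 19 for 22Rv1 and 85 for PC3. These limits were applied to siCtrl means, so any rise of such a gene with siMED12 itself would be counted as carry-over. Coordinates are from Gencode release 44 on GRCh38 and upstream sequences from RefSeq. Alternatives were relative log expression scaling, DESeq2 1.42.0, limma 3.58.1, every gene with at least 1 count, the replicate block, subtraction of carry-over and leaving out each library. Results of 3 marker genes are not reported here.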

Additional observations from a re-analysis of the deposited data

How the results depend on the processing

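For the 10 genes, the count past the threshold in LNCaP was 2, and it was 1 with DESeq2 (PHLDA1), 0 with limma, 4 with the replicate block and 1 with carry-over subtracted (PHLDA1). It ranged from 0 to 2 when 1 library was left out. In 22Rv1 the count of 2 was 1 with DESeq2 and 1 with limma (DUSP1 in each) and ranged from 0 to 2 when 1 library was left out. The effect in PC3 minus that in LNCaP had 0 members past it, and 1 with the replicate block (PHLDA1). Counts for the siCtrl groups stayed within 1.5 times under every alternative run. The cause of these changes was not tested.

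The effect on SPRED2 in PC3, 0.0039 on the log2 scale, was -0.0579 with DESeq2, -0.137 with limma and -0.29 with the replicate block. With 1 library left out, effects in PC3 that changed sign ranged from -0.205 to 0.0666 for DUSP1, -0.524 to 0.0107 for DUSP5, -0.0537 to 0.172 for PHLDA1, -0.77 to 0.38 for SPRED2, -0.248 to 0.0627 for SPRY1 and -0.36 to 0.60 for SPRY2, and the difference of DUSP5 between 22Rv1 and LNCaP siCtrl ranged from -0.29 to 0.80. None of these passed the threshold in any fit.

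Over all genes, 44 were past the threshold in LNCaP, against 29 with DESeq2, 29 with limma, 95 with every gene of at least 1 count and 117 with the replicate block. In 22Rv1, 194 were, against 85 with DESeq2 and 312 with the block, and in PC3 0, against 1 with limma, 9 with every gene of at least 1 count and 20 with the block. Genes differing between the 22Rv1 and LNCaP effects numbered 20, against 13 with limma, 68 with every gene of at least 1 count, 71 with the block and 7 with carry-over subtracted, and between the PC3 and LNCaP effects 3, against 15 with every gene of at least 1 count and 13 with the block. Between the PC3 and 22Rv1 effects they numbered 10, against 16 with DESeq2, 71 with every gene of at least 1 count and 73 with the block. A lone siMED12 library left after leaving 1 out was assumed to vary like the other groups. At 479118 to 993807 counts a library, no fold is given for members with under 10 counts over both groups of a line, and those of other members at such depth are imprecise.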
